A study of Mus musculus with 4 samples.

Results

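Adipocyte, brown fat and lipogenic genes were followed across 4 RNA sequencing libraries of mouse quadriceps. They are 32 genes of the 23482 in the deposited table, matched by symbol, and all 32 were found. They fall into 17 genes of white fat, 3 of brown fat (Ucp1, Cidea and Elovl3) and 12 of fatty acid and triglyceride synthesis. The genes were chosen from their RPKM, a read number divided by gene length and by library depth, with 1 library set against the other 3, so that contrast is described here with no test. The muscle came from FVB/N mice aged 6 to 8 weeks. It gave 2 libraries with the genotype Thbs1 overexpression (transgenic libraries 1 and 2) and 2 libraries of non-transgenic control muscle (control libraries 1 and 2). Thbs1 encodes thrombospondin-1, a secreted matricellular glycoprotein, and the study asked what its overexpression does to muscle transcripts. The labels name neither the promoter that drives the transgene nor the animal behind each library, so the error given below is the spread between libraries and may be technical.

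White adipocytes store triglyceride in a single large droplet coated by perilipins and secrete adipokines such as adiponectin and leptin. Brown adipocytes hold many small droplets and dense mitochondria, where the uncoupling protein Ucp1 lets protons return across the inner membrane without ATP synthesis, so that fuel is burned as heat. Lipogenic enzymes turn cytosolic citrate into fatty acids and join these to glycerol, and they are abundant in both kinds of fat. Myofibres use some of the same lipid genes, and depots of fat lie between and around muscles.

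The libraries held 18815221 to 20053685 reads in genes. Thbs1 was at 12900 and 15411 RPKM in the transgenic libraries, against 8.61 and 12.2 RPKM in the controls (limma log2 fold change 10.29, SE 0.23, adjusted p = 0.000564, n = 2 per group). It took 12.0% and 14.4% of all reads in the transgenic libraries, which lowers the RPKM of every other gene there. Defining genes of muscle were abundant in all 4 libraries but did not move together. Ckm, muscle creatine kinase, was at 4389 and 4345 RPKM in the transgenics and 7607 and 7662 RPKM in the controls. Acta1, skeletal actin, was also lower in both transgenics. Des, desmin, was higher in both, at 953 and 1028 RPKM against 566 and 612 RPKM. Mb, myoglobin, was at 535 and 304 RPKM in the transgenics and 434 and 480 RPKM in the controls. The part of the Thbs1 reads in these shifts was not tested. Transgenic library 1 stood apart from the other 3 in the fat genes below, so the comparison of genotypes in those genes is given with and without it. The labels do not say whether fat was trimmed from the muscle, so fat taken at dissection and fat genes made within the muscle cannot be told apart. In RNA from whole tissue, more cells of a type and more RNA per cell cannot be told apart.

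Of the brown fat genes, Ucp1 and Cidea set transgenic library 1 furthest from the rest, ahead of Elovl3 and of the white fat and lipogenic genes. Ucp1 (GRCm38, chromosome 8, 83290352 to 83298452, forward strand) was at 104 RPKM in transgenic library 1. It was at 0.0196 RPKM in transgenic library 2, and at 0 and 0.207 RPKM in the control libraries. Behind these values stood 5346 reads in transgenic library 1, 1 read in transgenic library 2 (exact Poisson 95% interval 0.0253 to 5.57) and 0 and 10 reads in the controls, where 3 reads would have been 0.0602 RPKM in control library 1. Transgenic library 1 was thus 1374-fold the mean of the other 3, a ratio that rests on 11 reads in those libraries. The intervals cover counting error only.

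Cidea, a droplet protein of brown adipocytes, was at 25.5 and 0.194 RPKM in the transgenic libraries and at 0.453 and 0.555 RPKM in the controls, a ratio of 63.7 for transgenic library 1 over the mean of the other 3. Elovl3, a fatty acid elongase of very long chains that brown fat makes in the cold, was at 8.24 and 0.281 RPKM in the transgenics and 0.727 and 0.847 RPKM in the controls, a ratio of 13.3. All 3 genes were highest in transgenic library 1, and Cidea and Elovl3 were lowest in transgenic library 2, so the transgenic libraries lay on both sides of the controls. Transgenic library 2 held 7 reads of Cidea and 15 of Elovl3, against 16 to 43 reads for these genes in the controls.

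The promoter windows of 5 genes that stood high in transgenic library 1 are shown because they span the classes: Ucp1 for brown fat, Adipoq and Plin1 for white fat, and Fasn and Thrsp for lipogenesis. Each runs from 250 bases before to 50 bases after the RefSeq transcript start on GRCm38.p6, 5′ to 3′ on the strand of the gene. They lie at chr8:83290098-83290397 on the forward strand for Ucp1, chr16:23146286-23146585 on the forward strand for Adipoq, chr7:79732727-79733026 on the reverse strand for Plin1, chr11:120824498-120824797 on the reverse strand for Fasn and chr7:97417501-97417800 on the reverse strand for Thrsp. The start used for Thrsp was not found at the 5′ end of its GENCODE transcripts, whose gene model begins at 97417730, inside the window. Capitals mark matches on either strand to the NF-Y motif CCAAT and the C/EBP motif TTGCNNAA.
Ucp1: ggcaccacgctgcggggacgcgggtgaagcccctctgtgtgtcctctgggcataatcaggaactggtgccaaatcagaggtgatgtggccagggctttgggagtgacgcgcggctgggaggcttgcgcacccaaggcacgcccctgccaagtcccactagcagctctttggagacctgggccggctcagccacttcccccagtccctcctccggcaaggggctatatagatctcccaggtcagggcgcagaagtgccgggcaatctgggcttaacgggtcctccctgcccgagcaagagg
Adipoq: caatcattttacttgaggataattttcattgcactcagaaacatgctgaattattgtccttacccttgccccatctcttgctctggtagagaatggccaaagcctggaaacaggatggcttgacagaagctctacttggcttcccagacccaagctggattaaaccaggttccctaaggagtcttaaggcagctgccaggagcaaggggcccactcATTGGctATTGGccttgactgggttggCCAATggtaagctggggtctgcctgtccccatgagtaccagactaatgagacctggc
Plin1: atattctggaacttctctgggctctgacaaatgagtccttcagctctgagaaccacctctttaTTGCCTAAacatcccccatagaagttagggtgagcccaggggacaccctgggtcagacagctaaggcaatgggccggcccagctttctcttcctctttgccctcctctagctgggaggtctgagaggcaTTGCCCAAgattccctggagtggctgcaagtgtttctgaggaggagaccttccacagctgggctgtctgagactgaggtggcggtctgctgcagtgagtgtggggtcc
Fasn: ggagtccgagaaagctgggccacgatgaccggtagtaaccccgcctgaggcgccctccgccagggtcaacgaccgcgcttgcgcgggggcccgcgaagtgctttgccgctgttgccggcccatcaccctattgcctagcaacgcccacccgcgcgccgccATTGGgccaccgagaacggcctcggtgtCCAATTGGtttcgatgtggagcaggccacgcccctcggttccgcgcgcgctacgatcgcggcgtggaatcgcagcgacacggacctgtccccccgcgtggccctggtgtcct
Thrsp: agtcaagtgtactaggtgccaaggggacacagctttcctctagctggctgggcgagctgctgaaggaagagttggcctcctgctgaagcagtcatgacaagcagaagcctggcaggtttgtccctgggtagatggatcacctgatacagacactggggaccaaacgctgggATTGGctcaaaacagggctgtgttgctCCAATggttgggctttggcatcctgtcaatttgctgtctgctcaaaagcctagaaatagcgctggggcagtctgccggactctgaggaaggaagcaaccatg

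Adipoq and Fasn each held 3 matches to CCAAT and Thrsp held 2, Plin1 held 2 matches to TTGCNNAA, and Ucp1 held neither motif. In Fasn, 2 of the matches overlap on opposite strands. Of the 32 genes, 24 had at least 1 window, 31 windows in all. CCAAT was in 12 of the 31 windows, or 38.7%, against 37.4% of all 32851 promoter windows, so it was about as common as elsewhere. TTGCNNAA was in 5 of 31 (Cidec, Gpam, Lep, Plin1 and Pparg), against 10.8% of all windows. The E-box CACGTG was in 1, that of Lipe, against 7.15%. The sterol response element TCACNCCAC was in 0, against 1.24%, and a direct repeat of AGGNCA after 1 free base, the form bound by PPAR and RXR, was in 0, against 0.381%. These are letter matches in short windows and show no binding.

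Among the secreted products of white fat, Adipoq, adiponectin, was at 31.7 and 3.14 RPKM in the transgenic libraries and 3.21 and 2.74 RPKM in the controls. Cfd, the complement protease adipsin, was at 333 and 27.5 RPKM in the transgenics and 31.4 and 30.3 RPKM in the controls. Transgenic library 1 stood alone for both, at 10.5-fold and 11.2-fold the mean of the other 3, while those 3 lay close together. Lep, leptin, was at 3.46 and 0.362 RPKM in the transgenics and 0.398 and 0.537 RPKM in the controls. Retn, resistin, was at 4.48 and 0.919 RPKM in the transgenics and 0.876 and 0.506 RPKM in the controls. Both low genes were highest in transgenic library 1, with ratios of 8.003 and 5.84, and Lep in the 3 other libraries rests on 27 to 38 reads.

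Genes of the fat droplet also stood highest in transgenic library 1. Plin1, the perilipin that coats the droplet of fat cells and controls access of lipases, was at 9.86 and 0.608 RPKM in the transgenics and 0.562 and 0.625 RPKM in the controls. Cidec, which fuses droplets into a single large one, was at 52.6 and 2.96 RPKM in the transgenics and 2.96 and 3.02 RPKM in the controls. The controls differed 1.02-fold for Cidec, with transgenic library 2 beside them, and transgenic library 1 was 17.7-fold the mean of those 3. Adig, adipogenin, a small membrane protein of adipocytes, was at 17.6 and 1.15 RPKM in the transgenics and 1.76 and 1.27 RPKM in the controls. Lipe, hormone-sensitive lipase, which releases fatty acids, was at 16.0 and 1.4999 RPKM in the transgenics and 1.92 and 2.58 RPKM in the controls. Tusc5, listed as Trarg1 in GENCODE, which assists glucose transporter traffic in fat cells, was at 6.15 and 0.631 RPKM in the transgenics and 0.658 and 0.551 RPKM in the controls, 10.03-fold the mean of the other 3 in transgenic library 1.

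The regulators of fat cells were at low levels in the 3 other libraries. Pparg, the nuclear receptor that drives adipocyte differentiation, was at 2.78 and 0.230 RPKM in the transgenics and 0.353 and 0.477 RPKM in the controls. Cebpa, its partner transcription factor, was at 16.9 and 3.70 RPKM in the transgenics and 2.11 and 1.88 RPKM in the controls. Cebpa therefore differed from Pparg in transgenic library 2, which lay above both controls for Cebpa and below both for Pparg. Adrb3, the adrenergic receptor through which noradrenaline starts lipolysis and heat production, was at 1.42 and 0.353 RPKM in the transgenics and 0.0903 and 0.146 RPKM in the controls, where it had 7 and 11 reads. Pck1, which makes the glycerol backbone for storage, was at 31.6 and 1.37 RPKM in the transgenics and 0.460 and 2.01 RPKM in the controls. The controls themselves differed 4.38-fold for Pck1, more than for any other gene of the 32 that had reads in both.

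Fabp4, Aqp7, Car3 and Plin4 are also made by other cells of muscle. They had ratios of 5.95 and below, but so had Retn, at 5.84, and the lipogenic genes Pnpla3, Acss2, Gpam and Me1. Fabp4, the adipocyte fatty acid binding protein, which capillary endothelium also makes, was at 506 and 68.6 RPKM in the transgenics and 79.8 and 106 RPKM in the controls, a ratio of 5.95. Aqp7, a glycerol channel, was at 9.37 and 3.89 RPKM in the transgenics and 6.41 and 4.81 RPKM in the controls, a ratio of 1.86. Car3, carbonic anhydrase 3, abundant in slow myofibres as well as fat, was at 951 and 354 RPKM in the transgenics and 808 and 756 RPKM in the controls, a ratio of 1.49. Plin4, a perilipin of fat and muscle, was lower in transgenic library 1 than in either control, at 35.1 and 18.2 RPKM in the transgenics and 47.8 and 75.2 RPKM in the controls. Endothelial markers, which include none of these genes, summed to 71.0 and 41.4 RPKM over 10 genes in the transgenics and 66.4 and 56.5 RPKM in the controls. Slow fibre markers moved with transgenic library 2, where Car3 was lowest: their summed level over 8 genes was 627 and 67.1 RPKM in the transgenics and 473 and 816 RPKM in the controls. The part of these cells in the values of the 4 genes was not tested.

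**Figure D1:**
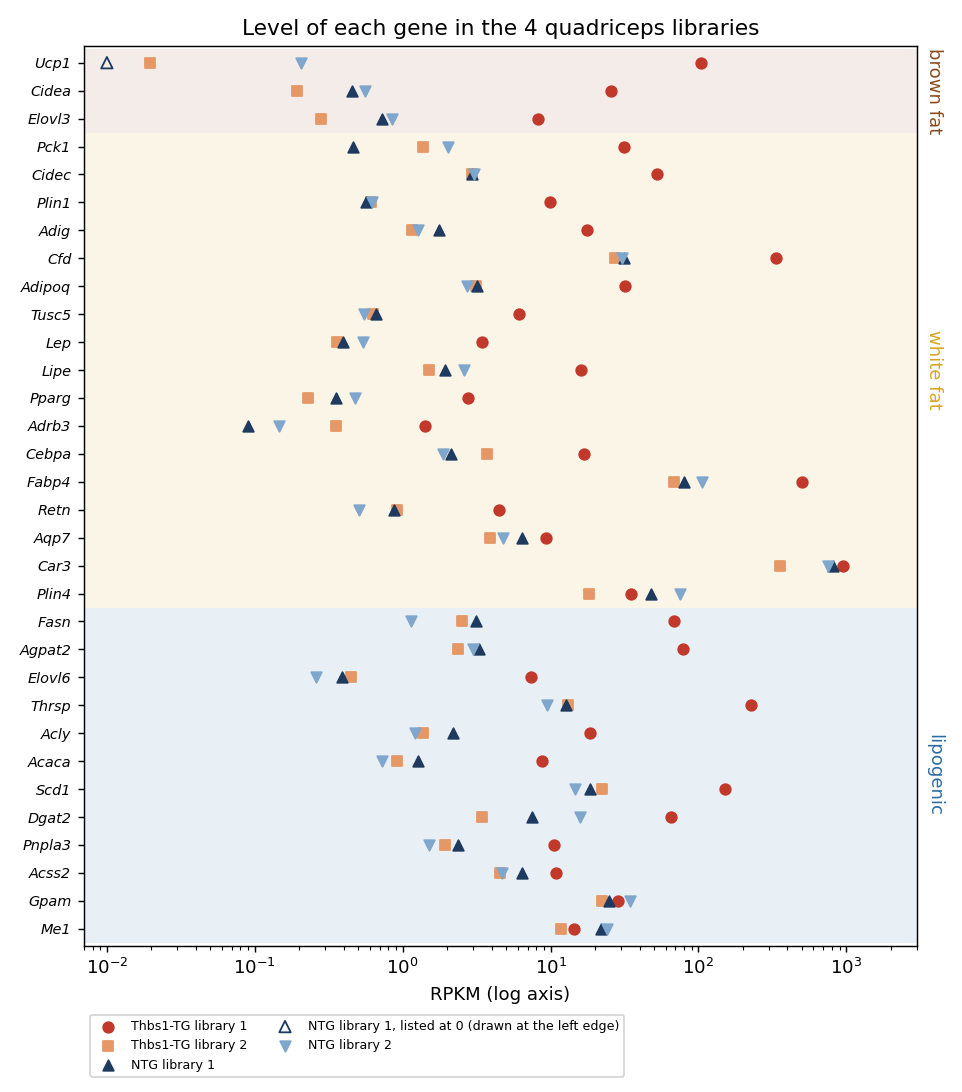
RPKM of the 32 genes in each of the 4 libraries on a log axis, grouped into brown fat, white fat and lipogenic genes and ordered within a group by the ratio of transgenic library 1 to the mean of the other 3. Transgenic library 1 lies to the right of the other libraries for 29 genes, and Gpam, Me1 and Plin4 are the exceptions.

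The lipogenic genes divided into those that stood high in transgenic library 1 and those that did not. Fasn, fatty acid synthase, was at 68.6 and 2.53 RPKM in the transgenics and 3.11 and 1.14 RPKM in the controls, and Thrsp, the lipogenic regulator Spot14, at 228 and 13.0 RPKM in the transgenics and 12.7 and 9.50 RPKM in the controls. Agpat2, which acylates lysophosphatidic acid on the way to triglyceride, was at 78.6 and 2.38 RPKM in the transgenics and 3.29 and 2.99 RPKM in the controls. These 3 genes had ratios of 30.3, 19.3 and 27.2 for transgenic library 1, higher than Adipoq or Plin1. Elovl6, an elongase of saturated and monounsaturated chains, was at 7.36 and 0.448 RPKM in the transgenics and 0.390 and 0.260 RPKM in the controls, a ratio of 20.1.

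Acly, which makes cytosolic acetyl-CoA from citrate, was at 18.6 and 1.38 RPKM in the transgenics and 2.19 and 1.22 RPKM in the controls. Acaca, the carboxylase that commits acetyl-CoA to fatty acids, was at 8.77 and 0.920 RPKM in the transgenics and 1.26 and 0.727 RPKM in the controls. Acly and Acaca had ratios of 11.7 and 9.03, and in both the other 3 libraries overlapped across genotype. Scd1, the desaturase that makes oleate, was at 152 and 22.4 RPKM in the transgenics and 18.4 and 14.5 RPKM in the controls. Dgat2, which adds the last acyl chain of triglyceride, was at 64.9 and 3.42 RPKM in the transgenics and 7.53 and 15.8 RPKM in the controls. Dgat2 thus spanned the controls from both sides. Pnpla3, a lipase and acyltransferase that responds to feeding, was at 10.5 and 1.95 RPKM in the transgenics and 2.37 and 1.501 RPKM in the controls.

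The remaining lipogenic enzymes showed little or no excess in transgenic library 1. Acss2, which makes acetyl-CoA from acetate, was at 10.8 and 4.58 RPKM in the transgenics and 6.46 and 4.67 RPKM in the controls, a ratio of 2.07. Gpam, the mitochondrial enzyme that starts glycerolipid synthesis, was at 28.7 and 22.1 RPKM in the transgenics and 24.7 and 34.4 RPKM in the controls, and the groups overlapped. Me1, malic enzyme, a source of NADPH for lipogenesis, was at 14.4 and 11.8 RPKM in the transgenics and 21.8 and 24.1 RPKM in the controls. Me1 and Plin4 were the only genes of the 32 with both transgenic libraries below both controls. Over the 10693 genes with at least 1 RPKM in any library, 19.1% had that order. The opposite order, both transgenic libraries above both controls, was seen for 6 of the 32 (Adrb3, Retn, Cebpa, Thrsp, Scd1 and Elovl6) and for 38.4% of those genes. The 32 were chosen with transgenic library 1 set against the others, which bears on both orders, so these counts support nothing.

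Against the mean of the other 3 libraries, transgenic library 1 was at least 2-fold higher for 27 of the 32 genes. Of the 10693 genes with at least 1 RPKM in any library 6.4% were that much higher, but the genes were chosen on this contrast and the count supports nothing. The ratio was 13.3 to 1374 among the 3 brown fat genes, with a median of 63.7. It was 0.746 to 24.7 among the 17 white fat genes, with a median of 7.997, and 0.747 to 30.3 among the 12 lipogenic genes, with a median of 8.62. The white fat and lipogenic ranges overlapped. Summed over the class, lipogenic genes were at 690 and 86.9 RPKM in the transgenics and 104 and 111 RPKM in the controls. The highest white fat ratio was that of Pck1 and the lowest that of Plin4.

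**Figure D2:**
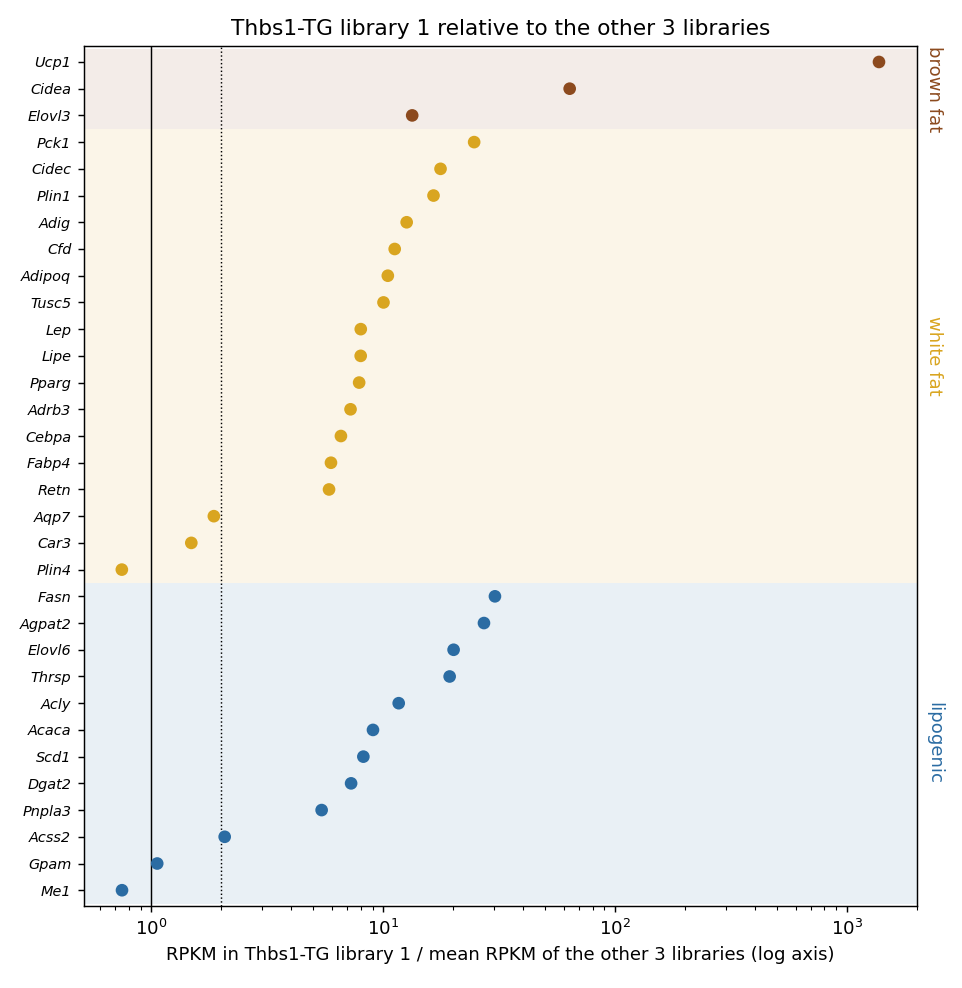
Ratio of the RPKM in transgenic library 1 to the mean RPKM of the other 3 libraries for each of the 32 genes on a log axis, with lines at 1 and 2. Ucp1 lies at 1374 and Cidea at 63.7, while Aqp7, Car3, Gpam, Me1 and Plin4 lie below 2.

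Proportions between fat genes also differed between libraries. Ucp1 was 3.27 times the RPKM of Adipoq in transgenic library 1, against 0.00626 times in transgenic library 2 and 0 and 0.0755 times in the controls. Cidea over Cidec, a brown fat gene over its white fat relative, was 0.485 in transgenic library 1, against 0.0656 in transgenic library 2 and 0.153 and 0.183 in the controls. Both ratios of a brown to a white fat gene were highest in transgenic library 1. Elovl3 over Elovl6 did not follow this, at 1.12 in transgenic library 1, against 0.626 in transgenic library 2 and 1.87 and 3.26 in the controls. Fasn over Adipoq was 2.16 in transgenic library 1, against 0.806 in transgenic library 2 and 0.971 and 0.418 in the controls. Cfd over Adipoq was nearly constant, at 10.5 in transgenic library 1, 8.75 in transgenic library 2 and 9.78 and 11.1 in the controls. Plin4 over Plin1 went furthest the other way, at 3.56 in transgenic library 1, 29.9 in transgenic library 2 and 85.1 and 120 in the controls.

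The comparison of genotypes called none of these genes. The test used log2(RPKM + 1) of every gene that reached 1 RPKM in 2 or more libraries, which took in 22 of the 32 and left out 10 that reached 1 RPKM only in transgenic library 1. By limma 0 of the 22 passed an adjusted p of 0.05, against 7.47% of the 10015 genes tested (6.25% higher and 1.22% lower in transgenic muscle). At an unadjusted p under 0.05 there were 3 of the 22, Me1, Plin4 and Cebpa, against 27.9% of all tested genes, so the share was no higher among the fat genes. Without the filter 0 of all 32 passed in limma, against 0.822% of 17769 genes, and 2 had an unadjusted p under 0.05, against 21.3%. The contrast includes the library that chose the genes, so these counts are a description. The median log2 fold change of the 22 was 1.23, against 0.10 for all tested genes, and 18 were positive. Their standard errors were wide: Adipoq had a log2 fold change of 1.55 (SE 0.93, limma adjusted p = 0.345) and Fasn one of 2.40 (SE 1.36, limma adjusted p = 0.321), and the 2 transgenic libraries lay far apart for both.

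Me1 (GRCm38, chromosome 9, 86581371 to 86695953, reverse strand) came nearest to a call, and its exons overlap A330041J22Rik on the opposite strand. Its mean was 13.1 ± 1.84 RPKM in transgenic muscle and 22.9 ± 1.63 RPKM in controls (SD, n = 2 each), a log2 fold change of -0.77 (SE 0.17, limma adjusted p = 0.0592). With median-of-ratios scaling it was -0.95 (limma adjusted p = 0.0389) and with limma-voom on recovered reads -1.01 (adjusted p = 0.0265), and Me1 was the only one of the 32 genes called in either fit, which called 2.45% and 4.68% of all genes lower. Over 10 alternatives its adjusted p in limma was 0.0265 to 0.189 and its log2 fold change stayed negative. In the authors' deposited table Me1 had an adjusted p of 0.00153 and was the only one of the 32 under 0.1, against 9.2% of 17769 genes. Median-of-ratios scaling shifted the median of all tested genes to -0.04. Relative to that median Me1 was lower by a similar amount with either scaling.

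Without transgenic library 1 the median log2 fold change of the fat genes was -0.22 over 21 tested, against 0.03 for all genes, and 14 of the 21 were negative. In transgenic library 2 the 32 genes had a median of 0.816 times the control mean, with a range of 0.190 for Ucp1 to 2.99 for Adrb3. Transgenic library 2 lay below both controls for 17 of the 32, between them for 9 and above both for 6. Of the 10693 genes 33.4% lay below both controls in that library. Transgenic library 2 and the controls entered the choice of the genes, so the comparisons of them here are a description. With transgenic library 2 alone set against the controls in limma, 2 of 21 tested genes were lower and 0 were higher, against 1.67% of genes called lower. The 2 called were Plin4, whose exons overlap Hdgfl2 on the opposite strand (log2 fold change -1.67), and Dgat2 (-1.44). Over all alternatives to the main fit Plin4 stayed negative, at -1.67 to -0.756. Dgat2 changed sign over them, from -1.44 to 2.46, and was at 0.51 in the main fit of all 4 libraries. The fit without transgenic library 1 assumes that the lone transgenic library varies like the controls. Adipoq had a log2 fold change of 0.06 there and Cidec one of -0.01.

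**Figure D3:**
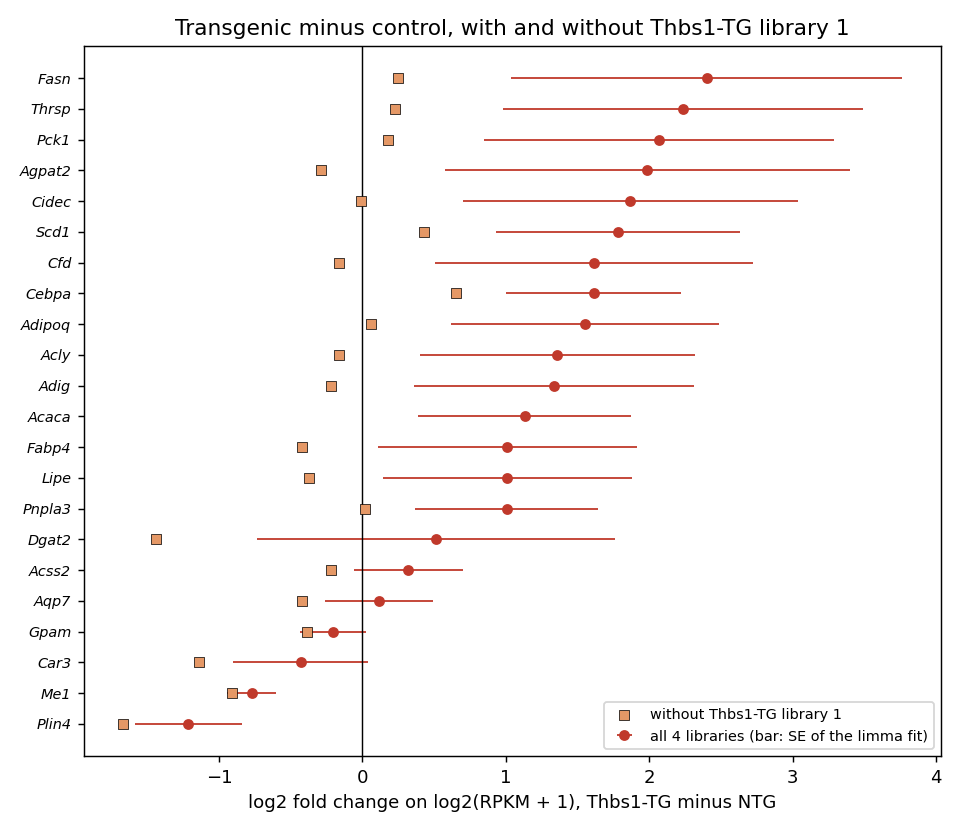
Log2 fold change on log2(RPKM + 1), transgenic minus control, for the 22 tested genes, with all 4 libraries (circles, bars show the SE of the limma fit) and without transgenic library 1 (squares). Fasn lies at 2.40 with all libraries and at 0.25 without that library, while Me1 lies at -0.77 and -0.91. Acaca was not tested without it.

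Other genes known from fat, from lists that hold none of the 32, followed the pattern to unequal degrees. These lists were also chosen with earlier results of these data known, so their counts are a description. Of all 23482 genes 7037 were highest in transgenic library 1, and 5713 had no read in any library. Of 11 other adipocyte-restricted genes in the table, taken with no filter on level, all 11 were highest in transgenic library 1, and 5 of the 11 reached 1 RPKM in that library alone. Their median ratio was 10.2, against 1.15 for all genes with reads in the other 3 libraries. Mrap, an accessory protein of melanocortin receptors, was at 13.2 and 0.293 RPKM in the transgenics and 1.23 and 0.0771 RPKM in the controls. Rbp4, the retinol carrier, was at 7.81 and 1.91 RPKM in the transgenics and 0.835 and 0.739 RPKM in the controls. Nnat and Sncg, neuronatin and gamma-synuclein, had smaller ratios of 4.68 and 4.40. Of the 4 tested genes of this list 0 were called by limma, against 7.47% of all tested genes, with a median log2 fold change of 1.20.

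Brown fat genes outside the 3 members differed widely among themselves. With no filter on level, 8 of 9 were highest in transgenic library 1, and the median ratio was 2.83 over the 8 with reads in the other libraries. Otop1, a proton channel, was at 4.46 and 0.0815 RPKM in the transgenics and 0.0729 and 0.214 RPKM in the controls. Kcnk3, a potassium channel, was at 2.97 and 0.140 RPKM in the transgenics and 0.184 and 0.0949 RPKM in the controls. Both were high in transgenic library 1 alone, and so was Slc27a2, a fatty acid transporter named after its values were seen, at 1.53 and 0 RPKM in the transgenics and 0.0248 and 0 RPKM in the controls. Pank1, a kinase of coenzyme A synthesis, was at 4.78 and 1.34 RPKM in the transgenics and 2.05 and 3.22 RPKM in the controls, a smaller ratio of 2.17. Dio2, the deiodinase that activates thyroid hormone, was at 2.73 and 1.60 RPKM in the transgenics and 0.865 and 0.257 RPKM in the controls, so that both transgenic libraries were above both controls. The lineage factors Zic1, Prdm16 and Ebf2, named after their values were seen, were at 0.0318, 0.110 and 0.601 RPKM in transgenic library 1. In the other 3 libraries they reached 0.0792, 0.0846 and 0.444 RPKM, so transgenic library 1 stood little above them and Zic1 was higher in control library 2.

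Of 10 brown fat genes that muscle shares, 3 were highest in transgenic library 1, and the median ratio was 1.12. Letmd1 and Esrrg, named after their values were seen, were at least 2-fold the mean of the other 3 there. Letmd1, a mitochondrial protein needed for heat production in brown fat, was at 15.4 and 1.93 RPKM in the transgenics and 2.31 and 2.99 RPKM in the controls, a ratio of 6.39. Esrrg, a nuclear receptor of oxidative muscle, was at 2.33 and 1.54 RPKM in the transgenics and 1.04 and 0.793 RPKM in the controls. Cox7a1, a subunit of cytochrome oxidase, was at 160 and 130 RPKM in the transgenics and 194 and 396 RPKM in the controls, below both controls in both transgenic libraries. Cox8b, another subunit, was at 81.8 and 54.0 RPKM in the transgenics and 97.0 and 160 RPKM in the controls. Fabp3, the muscle fatty acid binding protein, was at 484 and 243 RPKM in the transgenics and 374 and 682 RPKM in the controls, and the groups overlapped. By limma 0 of the 10 were called, against 7.47% of all tested genes, with a median log2 fold change of -0.45. Lipid droplet and lipolysis genes shared with muscle had 8 of 18 at least 2-fold, against 6.4% of genes with at least 1 RPKM in any library. The median ratio of the 18 was 1.87, against 1.13 for those genes. Lpl, lipoprotein lipase, was at 152 and 39.7 RPKM in the transgenics and 99.1 and 126 RPKM in the controls. Gpd1, which makes glycerol 3-phosphate from a glycolytic intermediate, was at 290 and 140 RPKM in the transgenics and 267 and 235 RPKM in the controls. Acsl1, which activates fatty acids, was at 69.1 and 28.5 RPKM in the transgenics and 43.2 and 44.5 RPKM in the controls, and neither set the groups apart. Slc2a4, the insulin-regulated glucose transporter, was at 181 and 132 RPKM in the transgenics and 238 and 254 RPKM in the controls (log2 fold change -0.66, limma adjusted p = 0.121), and 0 of 16 tested genes of that list were called.

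Of 19 other lipogenic genes 9 were at least 2-fold in transgenic library 1, against 6.4% of the 10693 genes with at least 1 RPKM in any library. The median ratio of the 19 was 1.99, against 1.13 for those genes. Between genotypes 0 were called, against 7.47% of all tested genes, with a median log2 fold change of 0.62, against 0.10. Pgd, of the pentose phosphate pathway, was at 25.1 and 10.1 RPKM in the transgenics and 5.36 and 4.44 RPKM in the controls. Taldo1, of the same pathway, was at 74.4 and 44.9 RPKM in the transgenics and 30.5 and 39.4 RPKM in the controls. For Pgd both transgenic libraries were above both controls (its log2 fold change was 1.53, limma adjusted p = 0.0862). Acacb, the mitochondrial carboxylase that restrains fatty acid oxidation, was at 26.0 and 12.6 RPKM in the transgenics and 22.8 and 22.7 RPKM in the controls. Tkt and Slc25a1, transketolase and the mitochondrial citrate carrier, named after their values were seen, had ratios of 15.2 and 14.4, close to those of Elovl6 and Acly. Sterol synthesis genes had a median ratio of 1.88 over 14 genes and a highest ratio of 3.79, and 0 of 12 tested were called. Hmgcs1, which starts that pathway, was at 13.5 and 9.58 RPKM in the transgenics and 11.2 and 9.22 RPKM in the controls.

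Markers of other cells were read in the same way. Of the Schwann cell markers, Pmp22, a peripheral myelin protein, was at 60.3 and 23.5 RPKM in the transgenics and 30.3 and 29.1 RPKM in the controls, highest in transgenic library 1. Fibro-adipogenic progenitor markers summed to 304 and 262 RPKM over 12 genes in the transgenics and 231 and 175 RPKM in the controls. Of the progenitor markers 2 of 10 tested rose by limma, against 6.25% of all tested genes. These were Lum (log2 fold change 1.75, adjusted p = 0.0238) and Pi16 (1.29, adjusted p = 0.0261), and without transgenic library 1 their log2 fold changes were 1.64 and 1.15. Smoc2 (0.41, limma adjusted p = 0.232) and Dcn (0.14, limma adjusted p = 0.697), also abundant, were not called.

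Macrophage markers summed to 270 and 244 RPKM over 11 genes in the transgenics and 84.3 and 53.7 RPKM in the controls. Of 10 tested, 8 rose by limma, against 6.25% of all tested genes. Cd68, among those called, passed the filter through the transgenic libraries alone. Lyz2, lysozyme, was at 172 and 155 RPKM in the transgenics and 55.4 and 29.4 RPKM in the controls, high in both transgenic libraries. Of 12 mammary epithelium markers 7 were at 0 in all libraries, among them Krt5, Krt14, Elf5 and Csn2, named after their values were seen. The 2 tested, Krt8 and Krt18, rose by limma (adjusted p = 0.0157 and 0.0286). Both passed the filter through the transgenic libraries alone, which favours a call, so these p-values are a description. Krt8 was at 2.31 and 3.95 RPKM in the transgenics against 0.0157 and 0 RPKM in the controls. Lymphocyte markers summed to 1.63 and 2.40 RPKM over 12 genes in the transgenics and 0.439 and 0.170 RPKM in the controls. The part of these cells in the values of the fat genes was not tested.

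**Figure D4:**
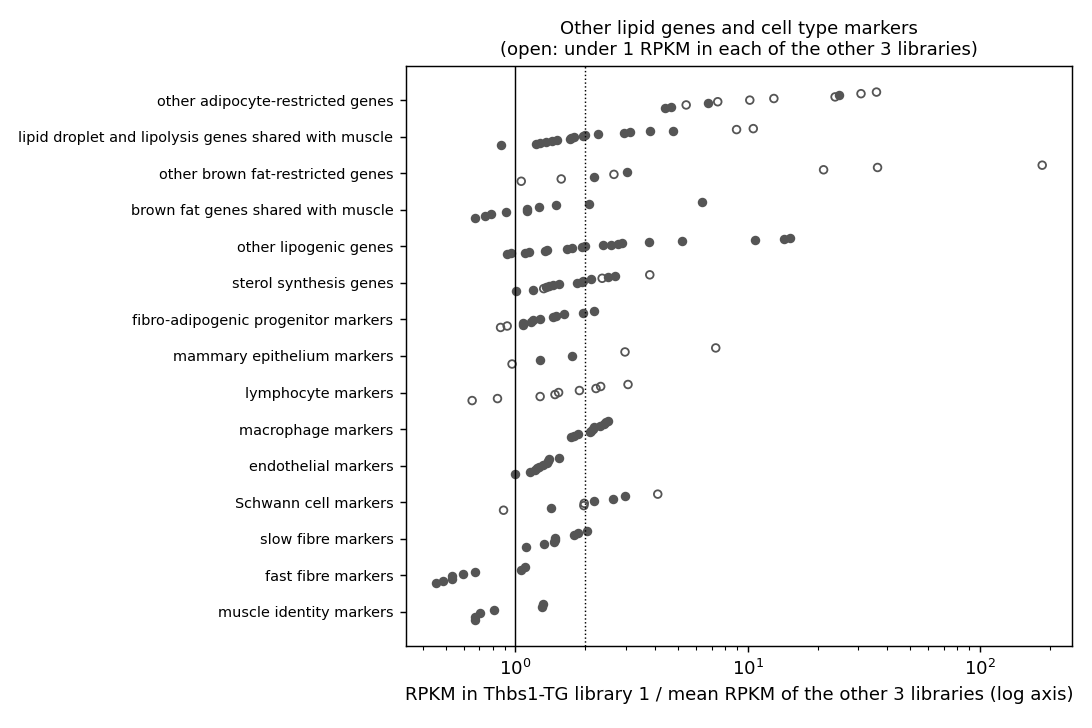
Ratio of the RPKM in transgenic library 1 to the mean RPKM of the other 3 libraries on a log axis for each gene of the other lists with reads in that library and in at least 1 other, with open circles for genes under 1 RPKM in each of the other 3. The median was 10.2 for other adipocyte-restricted genes, 2.83 for other brown fat-restricted genes and 0.566 for fast fibre markers.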

How the data were processed

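Quadriceps RNA was sequenced in 4 libraries, 2 of Thbs1 transgenic muscle and 2 of control muscle, grouped by sample title. Per the submitters' processing notes, bcl2fastq, TopHat and edgeR were used with build mm10, and versions are not given in the sources used here. The authors deposited RPKM per library, base means (a signal value, reads over a size factor, averaged), a ratio of control to transgenic base mean, and per gene a p-value, raw and adjusted. RPKM and base means together gave whole reads for 100% of values within 1e-06 of a read, which was used for depth and limma-voom. In 27 rows a spreadsheet had turned the symbol into a date, and none of these is named.

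limma 3.58.1 in R 4.3.3 was fitted, trend on, to log2(RPKM + 1) over all genes that reached 1 RPKM in 2 or more libraries, two-sided, with Benjamini-Hochberg adjustment at 0.05. A fold change on this scale understates low genes. A gene that passes through 1 group alone is favoured to differ. All 32 genes and Thbs1 were named. The plan was also to name the 4 members of each other list with the highest mean RPKM (all members where at most 5 were above 0). Several lists are named only in part against that plan. They include most cell type markers, sterol synthesis genes, other lipogenic genes and brown fat genes shared with muscle. Names outside the plan were chosen after seeing values. The list of Schwann cell markers is reported only in part here. The members and lists were chosen with earlier results of these data known. Alternatives were another pseudocount, no filter, median-of-ratios scaling, Thbs1 left out, limma-voom, an adjusted p under 0.1, a replicate block and each library left out.

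Coordinates are from GENCODE M21 (GRCm38, called mm10) and promoter sequences from RefSeq on GRCm38.p6. Exons of 10 of the 32 genes overlap another gene, 9 of them on the opposite strand (Plin4, Lipe, Adrb3, Cebpa, Elovl3, Elovl6, Agpat2, Me1 and Acss2). No source used here states strandedness, so overlapping genes may hold one another's reads. Other tools were Python 3.11.15, numpy 2.4.6, pandas 2.3.3, scipy 1.17.1 and matplotlib 3.10.9.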

Additional observations from a re-analysis of the deposited data

How the results depend on the processing

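Of the fat genes 0 were called by limma with all 4 libraries. The number was 1 with median-of-ratios scaling, 1 with limma-voom, 1 at an adjusted p under 0.1, and 0 to 16 when a library was left out, with 16 without transgenic library 2, which sets the library that chose the genes against the controls, and 2 without transgenic library 1. The cause of these moves was not tested. Changed genes over the whole table numbered 748 (626 higher, 122 lower). They numbered 146 with no filter (135 and 11), 1591 with Thbs1 left out of library sizes and tests (1486 higher), and 1705 at an adjusted p under 0.1 (1303 and 402). Lower genes numbered 244 with median-of-ratios scaling and 469 with limma-voom. Changed genes ranged over 1 to 680 when a library was left out, those higher over 1 to 583 and those lower over 0 to 156. The lowest came without control library 2, where 1 gene passed the adjusted p and 1978 had an unadjusted p under 0.05. The log2 fold change of Thbs1 was 10.06 to 10.52 without a library. A replicate block gave 64 lower genes of 561 changed and called 0 of the 22 fat genes. Deviations of libraries with 1 number in common correlated at 0.0742. With 2 libraries per group this cannot show whether the numbers pair them.

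Aqp7 turned to -0.042 with median-of-ratios scaling and -0.054 with limma-voom. Leaving out each library in turn gave log2 fold changes of -0.16 to 3.39 for Cfd, -0.013 to 3.75 for Cidec, -0.37 to 2.39 for Lipe, -0.22 to 2.89 for Adig, -0.16 to 2.88 for Acly, -0.29 to 4.26 for Agpat2, -0.42 to 2.44 for Fabp4, -1.44 to 2.46 for Dgat2, -0.22 to 0.87 for Acss2, -0.42 to 0.66 for Aqp7, -1.14 to 0.28 for Car3 and -0.43 to 0.027 for Gpam. With a library left out, an arm of 1 is assumed to vary like the other arm. For all of these genes but Gpam the lowest value came without transgenic library 1. The fewest reads of a fat gene in transgenic library 1 were 114, while Ucp1 had 11 in the other 3 libraries together.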

Other observations

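All 3082 genes with at least 10 RPKM in transgenic library 1 were ranked, after their values were seen, by the ratio of that library to the mean of the other 3. Of the 25 highest, 13 were among the 32 fat genes, which were chosen on this contrast, 4 were on another list and 8 were on none. Prkar2b, a regulatory subunit of protein kinase A, was at 11.2 and 0.339 RPKM in the transgenics and 0.235 and 0.150 RPKM in the controls. Arxes1 and Arxes2, adipocyte genes of the X chromosome, were at 11.5 and 13.1 RPKM in transgenic library 1 and at 0.121 to 0.764 RPKM in the other libraries. The paralogs Arxes1 and Arxes2 may share reads. Hp, haptoglobin, was at 58.0 and 7.24 RPKM in the transgenics and 1.10 and 2.13 RPKM in the controls, so that transgenic library 2 was also above both controls.

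All 16 major urinary protein genes with a Mup symbol and at least 1 RPKM in any library were at least 2-fold in transgenic library 1. Mup19 was at 89.3 and 9.89 RPKM in the transgenics and 22.6 and 9.52 RPKM in the controls, so control library 1 was above transgenic library 2 and control library 2. These genes are near-identical copies, and their values are not separate measurements.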
